A study of Drosophila melanogaster with 16 samples.

Results

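Transient receptor potential (TRP) channels are cation channels of the plasma membrane that open to light, heat, irritant chemicals or mechanical force, often downstream of other receptors. The family was named after the Drosophila trp mutant, whose photoreceptors give only a transient response to steady light, and most of its fly members are known for work in sensory neurons. The 10 TRP channel genes described here were trp, trpl, Trpgamma, TrpA1, pain, pyx, nan, iav, Trpm and nompC. Their members on the array were all features (array probes) whose accession belongs to 1 of these genes, which gave 363 of 45366 features and 10 of 12977 named genes. The features covered 34 transcripts, with 22 features for trp, 34 for trpl, 31 for Trpgamma, 51 for TrpA1, 33 for pain, 21 for pyx, 22 for nan, 11 for iav, 96 for Trpm and 42 for nompC.

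The study asked which transcripts change with age in motor neurons. Female flies on a w1118 background, aged 7, 35 or 45 days, expressed GFP under the D42-Gal4 driver, a driver used to mark motor neurons, and aged at 25 °C and 50% humidity with 12 h of light a day. At every age GFP-positive cells of the thoracic ganglion were sorted by flow cytometry, about 10000 cells from 5 pooled flies per replicate, and the RNA was amplified, labelled with Cy3 and hybridized to 1 custom Agilent array. There were 5 pools at 7 days, 5 at 35 days and 6 at 45 days, described as biologically independent. The cells are those in which 1 driver was active, so a sorted pool can hold other GFP-positive cells, and each value is an average over 5 flies.

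The marker genes of all neurons were well above background on every array (7 of 7 genes). So were 4 of the 5 measured motor neuron markers (exex, Lim3, tup and zfh1), while eve reached that level on 6 arrays and VGlut had no feature. Of the markers of the sensory cells in which TRP channels are best known, 1 of 9 photoreceptor markers (ninaE) and 1 of 8 markers of chordotonal and other ciliated sensory neurons (eys) were well above background on all arrays. The other 7 of these 8 genes reached that level on 0 (nompA) to 8 arrays (btv). Of the markers of cholinergic neurons 2 of 2 (ChAT and VAChT) were well above background on all arrays. Glial markers (6 of 6), 4 of 6 fat body markers, 6 of 9 muscle markers and 1 of 4 tracheal markers were as well, against 0 of 4 hemocyte markers. The part of cholinergic neurons and of these other cells in any TRP value was not tested. Between 56.7% and 67.1% of the spots of an array were well above background. All 7-day arrays lay in 1 row of their slide and all 35-day arrays in the other, with 3 of the 6 45-day arrays in each, so that age and slide row cannot be told apart between 35 and 7 days. The array labelled 35 days replicate 1 stood apart in the features of Trpm, and the values of Trpm and the medians over the TRP features are given with and without it.

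The array software calls a spot well above background when its signal both exceeds its local background significantly and clears it by a set margin. By this call 34 of the 363 TRP features (9.37%) were seen on all 16 arrays, where 43.8% of all features on the array were. Another 265 features were seen on some arrays, and 64 (17.6%) on none, against 13.7% of all features. The 34 features seen on every array belonged to 2 of the 10 genes, Trpm with 32 and pyx with 2. A gene with at least 1 such feature was found for 53.2% of all named genes. The other 8 genes were seen on some arrays only. The number of TRP features seen per array was 105 at the lowest, 157 at the median and 190 at the highest at 7 days. It was 87, 138 and 158 at 35 days, and 113, 139.5 and 156 at 45 days, so the ages overlapped.

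**Figure D1:**
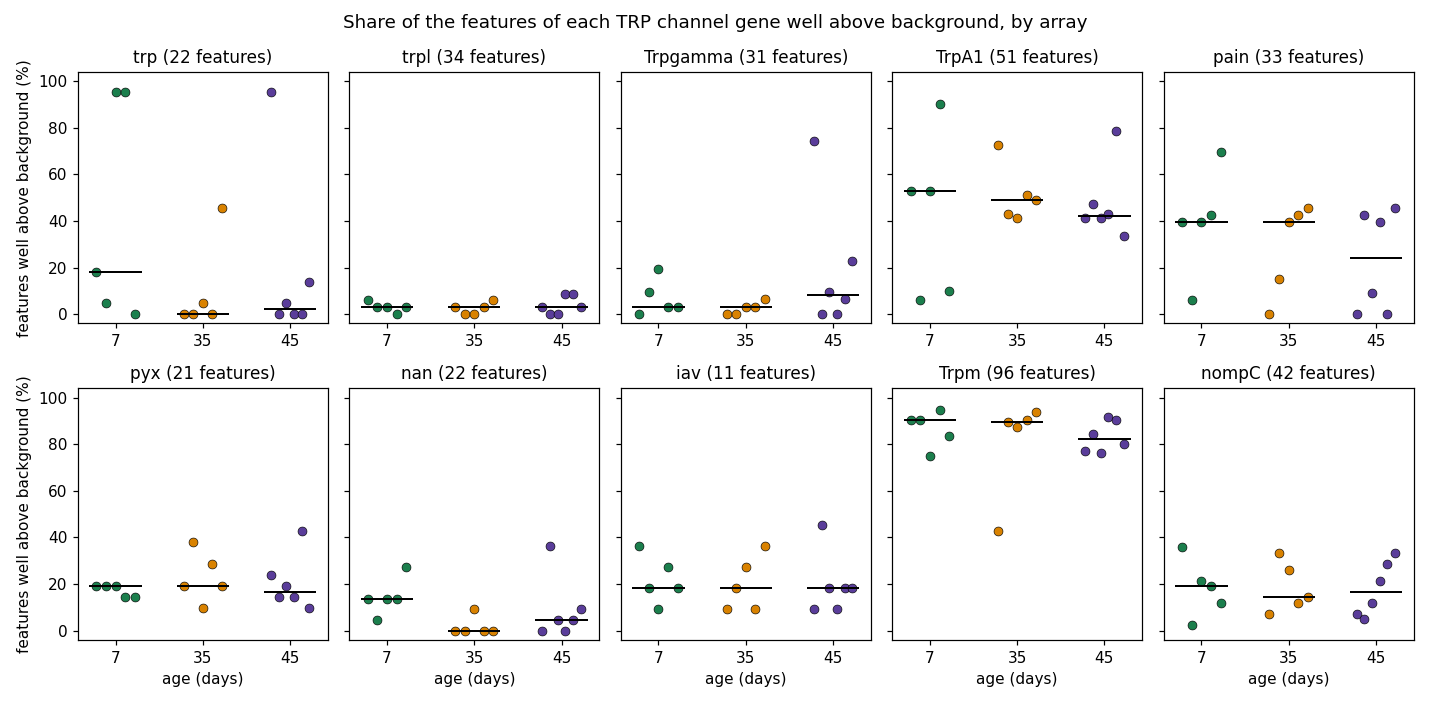
Share of the features of each TRP channel gene that were well above background (vertical axis, percent) on each array (dots), by age in days (horizontal axis, ages as categories), with the median of each age as a line. Each array showed 41 to 91 of the 96 Trpm features, while trp and pain were near 0 on some arrays and high on others of the same age.

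Values below are log2 intensities minus the 75th percentile of the array, so that 0 is that percentile, and a gene value is the mean over all features of the gene. Features that were seen on no array give the level at which nothing was measured. The median of these 6208 features per array was -9.79 to -9.40 at 7 days, -10.86 to -9.59 at 35 days and -10.27 to -9.29 at 45 days. A gene value near this level therefore carries no measured level, and brightness is compared within a gene only, since features differ in how brightly they hybridize. In such pools fewer cells of a type and less RNA per cell cannot be told apart.

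Across the TRP features, 1 of 363 passed the threshold between 35 and 7 days (limma, adjusted p under 0.05 and more than 2-fold), a feature of nan, where 0.0970% of all features on the array passed. Of all features 0.0749% passed as lower at 35 days, the direction of the nan feature. None of the 363 passed at 45 days relative to 7 days, where 0.375% of all features did. The comparison of 45 with 35 days also called none of them, where 0.0154% of all features were called. At an unadjusted p under 0.05 the TRP counts in these comparisons were 105, 6 and 26, or 28.9%, 1.65% and 7.16% of the 363, against 27.2%, 8.46% and 7.85% of all features. By the methods' t-test, after Benjamini-Hochberg adjustment, 1, 0 and 0 TRP features passed, against 19, 147 and 17 of all 45366 features. In limma's F test across the 3 ages the same nan feature passed (1 of 363, adjusted p = 0.00319), where 0.582% of all features did. Leaving out the 35-day replicate 4 moved the count between 35 and 7 days to 43 of 363, all lower at 35 days, while 4974 of the 45366 features on the array then passed. Of those 43 features 28 had been seen on no array.

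Per gene, none of the 10 TRP genes passed in any pair of ages. For 35 days relative to 7 days 0.100% of all named genes passed, and the smallest adjusted p of a TRP gene was 0.112 (limma). For 45 days the share was 0.00% relative to 7 days and 0.00771% relative to 35 days, and the smallest adjusted p of a TRP gene was 0.67 and 0.529 (limma). At an unadjusted p under 0.05 there were 5, 0 and 0 TRP genes in the same order of comparisons, against 24.1%, 9.08% and 6.98% of all genes. The F test called none of the 10 genes across the ages, where 0.0694% of all genes were called. At an unadjusted p under 0.05 in that test there were 2 of the 10, against 18.2% of all genes. Without the 35-day replicate 4, 1 TRP gene (Trpgamma) passed between 35 and 7 days, when 1144 of the 12977 genes passed.

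The values of the TRP features shifted between ages, and those of features seen on no array shifted as well. The median change of the 363 TRP features at 35 days relative to 7 days was -0.88 on the log2 scale, with 305 lower, beside a median of -0.41 over all features, with 31457 of 45366 lower. The 64 TRP features seen on no array had a median change of -0.81, and all 6208 such features of the array had the same median of -0.81. At 45 days relative to 35 days the median was 0.71 for the TRP features and 0.21 for all features, and 0.53 for the unseen features of either set. At 45 days relative to 7 days the medians were -0.19 for the TRP features and -0.20 for all features. The features seen on all arrays did not move with the unseen ones over the whole array, where their median was -0.053 at 35 days relative to 7 days and -0.0085 at 45 days relative to 35 days (19875 features). The 34 TRP features of that kind were mostly of Trpm and repeat a few custom features over several transcripts, so they are not separate measurements. They had medians of -0.91 (32 lower) and 0.80 (34 higher), or -0.47 and 0.35 without the 35-day replicate 1. Without that array the medians of the 363 TRP features were -0.69 and 0.51. The sign of many gene changes depended on the setting. For nan this held at 45 days relative to 7 days and relative to 35 days. For the 9 other genes 23 of 27 changes had the opposite sign at least once. Of the 752 values of these 9 genes under 37 other settings, which covered scaling, filters, models, slides and arrays left out, 86 had the opposite sign. The levels of these 9 genes are therefore given by age and without a direction.

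trp and trpl encode the light-gated channels of the photoreceptor, with trp carrying most of the light response, and both were mostly at the unseen level. The feature of trp seen on the most arrays reached 6 of 16. Of the 22 trp features, 4, 1, 21, 21 and 0 were seen on the 5 arrays at 7 days, 0, 0, 1, 0 and 10 at 35 days, and 21, 0, 1, 0, 0 and 3 at 45 days. Thus 3 arrays of 2 different ages (7-day replicates 3 and 4 and 45-day replicate 1) showed nearly all of the gene and most others almost none of it. The brightest of these were far from marginal. The trp-RA feature seen on 6 arrays read 307 and 750 intensity units on the 7-day replicates 3 and 4 and 556 units on the 45-day replicate 1, and between 5.28 and 69.7 units on the others. The trp gene value was -7.39 ± 2.27 at 7 days, -9.89 ± 1.03 at 35 days and -8.79 ± 2.18 at 45 days (SD, n = 5, 5 and 6), with overlapping ages and an F test adjusted p of 0.40 (limma).

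For trpl, 24 of 34 features were seen on no array and no array showed more than 3. Its gene value was -9.45 ± 0.23, -10.23 ± 0.50 and -9.70 ± 0.31 at 7, 35 and 45 days (limma F test, adjusted p = 0.22), which lies at the unseen level of each age. One trpl-RA feature was an exception and was seen on 6 arrays, none of them at 7 days, with a highest intensity of 526 units on the 45-day replicate 4. It is described as the trpl feature seen on the most arrays, and like the other trpl features it did not pass in any pair of ages.

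Trpgamma, another channel of the same canonical subfamily, was seen most on 1 array. Of its 31 features 23 were well above background on the 45-day replicate 1, against 0 to 7 on the other 15 arrays. The gene value on that array was -6.53, where the other 45-day arrays had -10.10 to -8.19. Over the ages it was -9.14 ± 0.43, -10.15 ± 0.54 and -8.85 ± 1.32 (limma F test, adjusted p = 0.31). That array was also 1 of the 3 with nearly all trp features.

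Among the photoreceptor genes outside the TRP family, the summed level of the 9 markers (log2 of the sum of their gene values on the linear scale) ranged over -4.16 to -2.39 at 7 days, -6.76 to -3.11 at 35 days and -6.24 to -2.95 at 45 days. Of 22 genes that act with trp and trpl in light signalling, 8 were seen on all arrays: ninaE (the main rhodopsin), norpA (the phospholipase C of the cascade), Galphaq, inaE, rdgA, rdgB, rdgC and Calx. None of their 368 features passed between any pair of ages. The median change of this list at 35 days relative to 7 days was -0.43. It was -0.41 over all features and -0.053 over all features seen on every array, and 255 of the 368 features of the list were seen on every array.

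TrpA1, pain and pyx belong to the TRPA subfamily and are known for the sensing of heat, noxious touch and irritants. TrpA1 was seen through part of its features on nearly every array. Of its 51 features 20 were seen on 13 or more arrays, and these were the first 4 custom features of each of its 5 transcripts, by their number on the array. On the 7-day replicates 2 and 5, 3 and 5 of the 51 features were seen, against 17 to 46 on the other 14 arrays. The feature of TrpA1-RJ seen on 15 arrays read 18.8 and 117 intensity units on these 2 arrays and 306 to 4498 units on the other 14. Both low arrays were 7-day arrays, but the other 3 arrays of that age (1892, 2327 and 3792 units) were among the bright ones. The gene value was -6.79 ± 2.11, -6.92 ± 1.47 and -6.65 ± 0.78 at 7, 35 and 45 days (limma F test, adjusted p = 0.98), so the spread within 7 days was larger than any difference between ages.

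Within TrpA1 the features of one order varied together. On the 7-day replicates 2 and 5 the first 4 orders deviated by -7.94 to -4.59 from the median of the 16 arrays on the log2 scale. Order 5 was seen for all 5 transcripts on 6 arrays (7-day replicates 1, 3 and 4, 35-day replicates 1 and 4 and 45-day replicate 5). Order 9 was seen for all 5 transcripts on 1 array, the 7-day replicate 4. The range between the 5 transcripts at one order and array had a median of 0.14 to 0.25 for the first 4 orders, so at these orders the features of different transcripts gave nearly the same values. At order 8 the median range was 1.48.

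pain (painless), named for the loss of the larval response to noxious heat, was seen mostly at the same orders of custom features but on fewer arrays. Its first 4 custom features per transcript were seen on 9 to 11 arrays. The feature of pain-RC seen on 11 arrays read 496, 10.1, 1207, 419 and 708 intensity units at 7 days. It read 10.1, 16.2, 471, 1875 and 1630 units at 35 days, and 9.30, 2254, 72.3, 6080, 10.9 and 2846 units at 45 days. Each age held arrays with and without pain. The gene value was -7.58 ± 1.1, -8.38 ± 1.84 and -8.04 ± 1.85 (limma F test, adjusted p = 0.87). By the gene table used for names, pain overlaps the sodium channel gene NaCP60E, of whose 102 features 99 were seen on all arrays.

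pyx (pyrexia), a channel opened by high temperature, was the second gene with features seen on every array. These were 2 features, 1 of pyx-RA and 1 of pyx-RB, and 4 of its 21 features were seen on no array. The pyx-RA feature read 196, 55.0, 267, 165 and 103 intensity units at 7 days, 73.7, 699, 105, 405 and 335 units at 35 days and 1083, 771, 84.0, 156, 593 and 291 units at 45 days. The highest values lay at 45 days but the ages overlapped. The mean of both features was -5.92 ± 0.67, -5.39 ± 1.32 and -4.79 ± 1.35. The difference of 0.53 between 35 and 7 days had an exact two-sided permutation p of 0.421. That of 1.13 between 45 and 7 days had an exact p of 0.121, and that of 0.60 between 45 and 35 days an exact p of 0.463. The value over all 21 features was -8.72 ± 0.29, -9.18 ± 0.69 and -8.69 ± 0.41 (limma F test, adjusted p = 0.53).

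nan (nanchung) and iav (inactive) encode the TRPV subunits that form the auditory channel of chordotonal neurons. Of the 22 nan features 13 were seen on some arrays and 9 on none. The numbers seen per array were 3, 1, 3, 3 and 6 at 7 days, 0, 0, 2, 0 and 0 at 35 days, and 0, 8, 1, 0, 1 and 2 at 45 days. The feature that passed the threshold, CUST_6681 of nan-RA, was seen on all 5 arrays at 7 days, on none of 5 at 35 days and on 1 of 6 at 45 days.

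This feature read 178, 96.3, 171, 154 and 519 intensity units at 7 days. At 35 days it read 7.38, 7.35, 5.90, 7.87 and 7.59 units, and at 45 days 5.70, 145, 8.60, 7.55, 8.94 and 14.5 units. All 7-day arrays thus lay above all 35-day arrays, and 5 of the 6 45-day arrays lay with the 35-day ones, the exception being replicate 2. Its mean value was -10.49 at 35 days and -5.50 at 7 days, a log2 change of -4.99 (SE 0.47, limma adjusted p = 0.0074). No 35-day array showed it well above background. With this background adjustment it was at least 7.15-fold lower at 35 days than at 7 days. That bound was set by the dimmest features that were well above background on the 35-day arrays. It does not hold for other adjustments, since the log2 change was -1.36 with the normexp background. The exact two-sided permutation p was 0.00794, the smallest that the 252 regroupings of 5 and 5 arrays allow. The feature was chosen by a test of these same arrays, so this p adds no support.

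The call between 35 and 7 days ended under quantile normalization (log2 change -3.83, limma adjusted p = 0.0526), with the normexp background (-1.36, adjusted p = 0.315), with the replicate number as a block (adjusted p = 0.0988) and on slide 2 alone (adjusted p = 0.367). At 45 days relative to 7 days the same feature had a log2 change of -3.92 (SE 0.75) and did not pass (limma, adjusted p = 0.0748). It passed without the 45-day replicate 2, the 1 array of that age that showed it (-4.53, adjusted p = 0.011). Leaving out any other array gave an adjusted p of 0.118 to 0.187, and the change with slide row as a term was -3.03 (adjusted p = 0.385). At 45 days relative to 35 days the change was 1.07 (SE 0.68, limma adjusted p = 0.496). Of all 45366 features 17 (0.0375%) were seen on every 7-day and no 35-day array, and 16 (0.0353%) on every 35-day and no 7-day array. The summed level of the 8 markers of chordotonal and other ciliated sensory neurons was 1.15 to 2.48 at 7 days, 0.76 to 2.15 at 35 days and 0.59 to 2.20 at 45 days, nearly all of it from eys. The other 7 markers summed to -6.25 to -2.03 at 7 days, -7.43 to -3.95 at 35 days and -6.81 to -3.69 at 45 days. Of the 225 features of the 9 measured muscle markers 3, all of up (troponin T of muscle), also passed as lower at 35 days than at 7 days, where 0.0749% of all features did. The summed level of the muscle markers was -0.38 to 2.58 at 7 days, 0.87 to 2.54 at 35 days and 1.94 to 3.84 at 45 days. The part of these cells in the nan values was not tested.

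**Figure D2:**
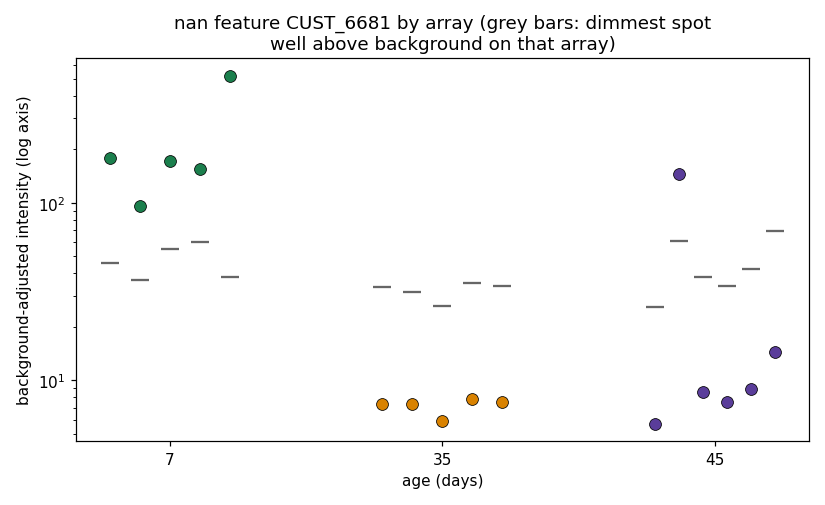
Background-adjusted intensity (vertical log axis, intensity units) of nan feature CUST_6681 on each array (dots), by age in days (horizontal axis, ages as categories), with the dimmest spot well above background on each array as a grey bar. The 5 arrays at 7 days (96.3 to 519) lie above their bars, while the 5 arrays at 35 days (5.90 to 7.87) and 5 of the 6 at 45 days lie below.

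The other 21 features of nan did not share this pattern. None was seen on more than 4 arrays or on more than 2 of the 7-day arrays. Their change at 35 days relative to 7 days ranged over -2.34 to 0.82 with a median of -0.83, close to that of the unseen features, and the smallest adjusted p was 0.0921 (limma). The nan gene value was -8.74 ± 0.61 at 7 days, -9.84 ± 0.39 at 35 days and -9.15 ± 0.62 at 45 days. The change of -1.1 at 35 days relative to 7 days did not pass (SE 0.33, limma adjusted p = 0.112). The 5 arrays of each age did not overlap (exact permutation p = 0.00794), but the value includes the feature chosen by this comparison. How many of all genes also did not overlap was not counted, so the separation adds no support. The changes of -0.41 at 45 days relative to 7 days and 0.69 at 45 days relative to 35 days did not pass either (limma, adjusted p = 0.696 and 0.529). Among 6885 genes with a feature seen on all arrays, those whose values followed nan most closely over the 16 arrays were CG14200 (Pearson r = 0.88), Vha68-2 (0.84), stv (0.84), CG13059 (0.81) and sls (0.81). This is a description, since arrays share their age and slide and most nan features measured nothing on most arrays. The nan value had an r of 0.75 with the level of the features seen on no array.

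iav was seen on few features but through 1 of them on most arrays. Of its 11 features 1 was seen on 13 of 16 arrays, 8 on fewer and 2 on none. That feature read 316, 733, 83.1, 76.9 and 956 intensity units at 7 days. It read 36.7, 44.5, 50.6, 98.4 and 632 units at 35 days, and 14.6, 2160, 379, 65.7, 462 and 381 units at 45 days. The ages overlapped, and the 45-day replicate 2, which also showed the most nan features (8 of 22), was the brightest. The iav gene value was -8.22 ± 0.47, -9.18 ± 0.65 and -8.61 ± 0.79 (limma F test, adjusted p = 0.36).

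nompC encodes the TRPN channel, a force-gated pore with a long ankyrin spring that serves touch and hearing. Of its 42 features 33 were seen on some arrays and 9 on none, and no feature on more than 11 arrays. The nompC-RA feature seen on 11 arrays stayed between 33.1 and 101 intensity units throughout. Other nompC features were bright on single arrays. Over all 4 transcripts custom feature 1 averaged -5.41 on the 7-day replicate 3 and -4.99 on the 35-day replicate 2. On both arrays it was seen for 3 of the 4, so these means include 1 unseen feature. Custom feature 5, seen for all 4, averaged -4.31 on the 45-day replicate 6. The gene value was -8.63 ± 0.51, -9.33 ± 0.58 and -9.01 ± 0.67 at 7, 35 and 45 days (limma F test, adjusted p = 0.50). Of 14 genes of chordotonal neurons and their cilia, only eys was seen on all arrays, and none of their 18 features passed between any pair of ages.

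**Figure D3:**
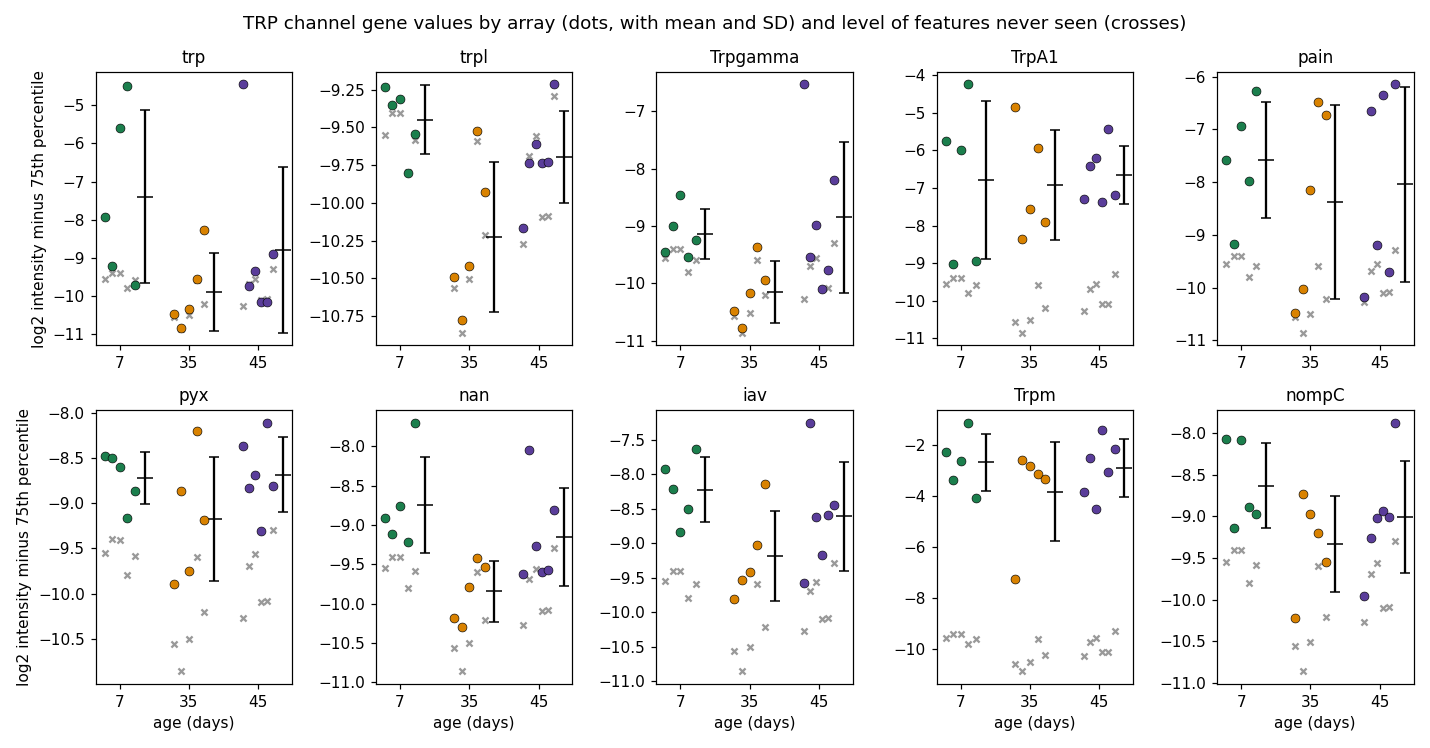
Gene value (vertical axis, log2 intensity minus the 75th percentile of the array) of each TRP channel gene on each array (dots), by age in days (horizontal axis, ages as categories), with mean and SD beside the dots and the median of the 6208 features seen on no array as grey crosses; vertical scales differ between panels. The values of trpl lie on or near the crosses, most of those of nan and nompC lie close above them, and those of Trpm lie well above on every array.

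Trpm, the single TRPM channel of the fly and known there for magnesium and zinc balance, was the gene with the most features seen on every array. Of its 96 features 32 were seen on all 16 arrays, 63 on some and 1 on none, and 74 were seen on 13 or more. The number seen per array was 72 to 91 at 7 days, 41 to 90 at 35 days and 73 to 88 at 45 days. The lowest count, 41, was that of the 35-day replicate 1.

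The 32 features were custom features 2 to 5 of 8 transcripts (all but Trpm-RB). Their mean was -0.56, -1.67, -0.19, -0.0066 and -2.17 on the 7-day arrays, -3.90, -0.88, -1.30, -1.63 and -1.78 on the 35-day arrays and -1.42, -0.47, -2.39, -0.15, -1.54 and 0.11 on the 45-day arrays. The ages overlapped and replicate 1 at 35 days lay lowest. By age the mean was -0.92 ± 0.95, -1.90 ± 1.17 and -0.97 ± 0.96 (SD, n = 5, 5 and 6). The difference of -0.98 between 35 and 7 days had an exact two-sided permutation p of 0.198 and was -0.48 without the 35-day replicate 1. For 45 days relative to 35 days it was 0.92 (exact p = 0.195), or 0.42 without that array, and relative to 7 days it was -0.057 (exact p = 0.957). The 32 features repeat custom features 2 to 5 over 8 transcripts, and the 2 pyx features gave nearly the same values (median range 0.13). They are therefore not 34 separate measurements. None of the 34 TRP features seen on every array, Trpm's 32 and the 2 of pyx, had an unadjusted p under 0.05 in any pair of ages. Of all 19875 features seen on every array 3045 did between 35 and 7 days, 1854 at 45 days relative to 7 days and 1643 at 45 days relative to 35 days.

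Over all 96 features the Trpm gene value was -2.69 ± 1.11, -3.83 ± 1.93 and -2.92 ± 1.13 (limma F test, adjusted p = 0.65). The 35-day replicate 1 had -7.25, where the other 4 arrays of its age had -3.32 to -2.61. Without it the 35-day value was -2.97 ± 0.32 and the F test adjusted p was 0.95 (limma). Its distance from the other arrays depended on the order of the feature within the transcript. Relative to the median of the 16 arrays the mean over the 8 transcripts was 1.62 at order 1 and -0.98, -2.14, -3.03 and -4.45 at orders 2 to 5. It was -7.70, -8.42, -8.24, -8.19 and -6.58 at orders 6 to 10, where none of the features were seen on that array.

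**Figure D4:**
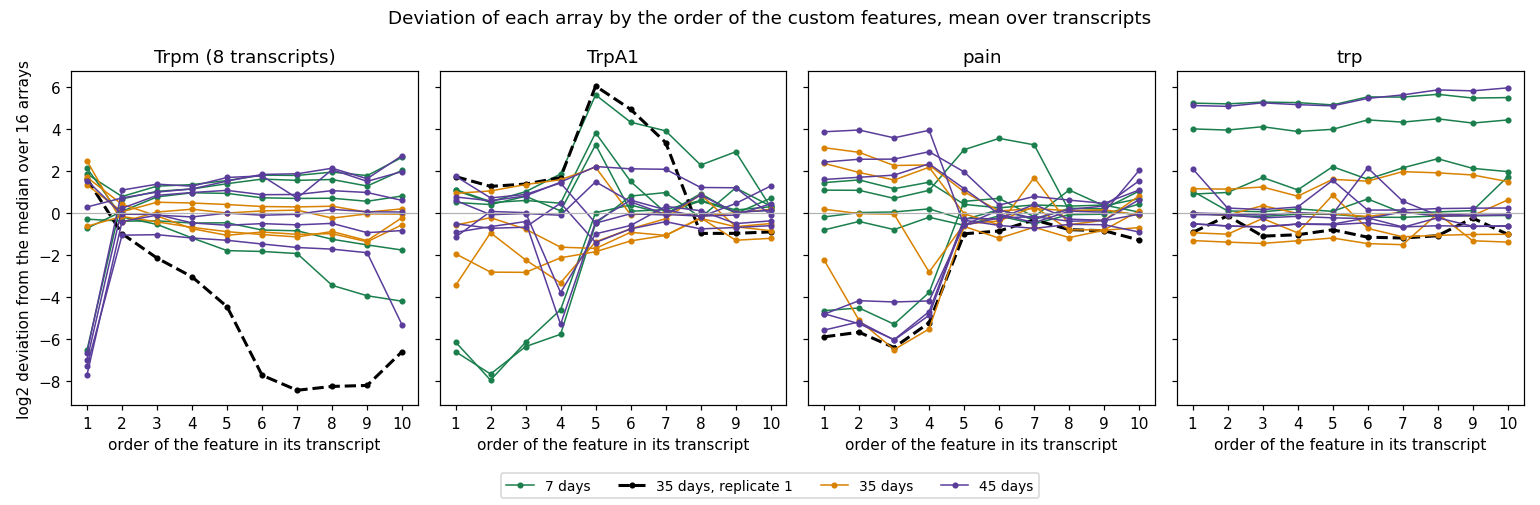
Log2 deviation of each array from the median of the 16 arrays (vertical axis), averaged over transcripts, by the order of the custom feature in its transcript (horizontal axis, 1 to 10), for 8 transcripts of Trpm and all transcripts of TrpA1, pain and trp, with arrays coloured by age and the 35-day replicate 1 dashed in black. That array falls to -8.42 at order 7 of Trpm, and in TrpA1 and pain the arrays part by several log2 units at the first 4 orders.

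At the first order Trpm behaved differently from its other features. The first custom feature of the 8 transcripts and 1 catalogue feature, 9 in all, were seen on the same 11 arrays, which were 4 of 5 at 7 days, 5 of 5 at 35 days and 2 of 6 at 45 days. Their mean was -3.04, -2.60, -8.83, -0.46 and -0.19 at 7 days, -0.69, -0.97, 0.16, -0.61 and -2.94 at 35 days and -9.95, -9.35, -9.61, -2.02, -0.77 and -8.95 at 45 days. On 5 arrays they were thus near the unseen level, while orders 2 to 5 of the same transcripts were seen on those arrays. Between 45 and 35 days the changes of the 9 features were -6.01 to -5.31 and did not pass (limma, adjusted p = 0.456 for each). At 45 days relative to 7 days they were -3.92 to -3.34 (adjusted p = 0.646 to 0.659). At 35 days relative to 7 days they were 1.81 to 2.17 (adjusted p = 0.418 to 0.444). These features were singled out after their values were seen.

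**Figure D5:**
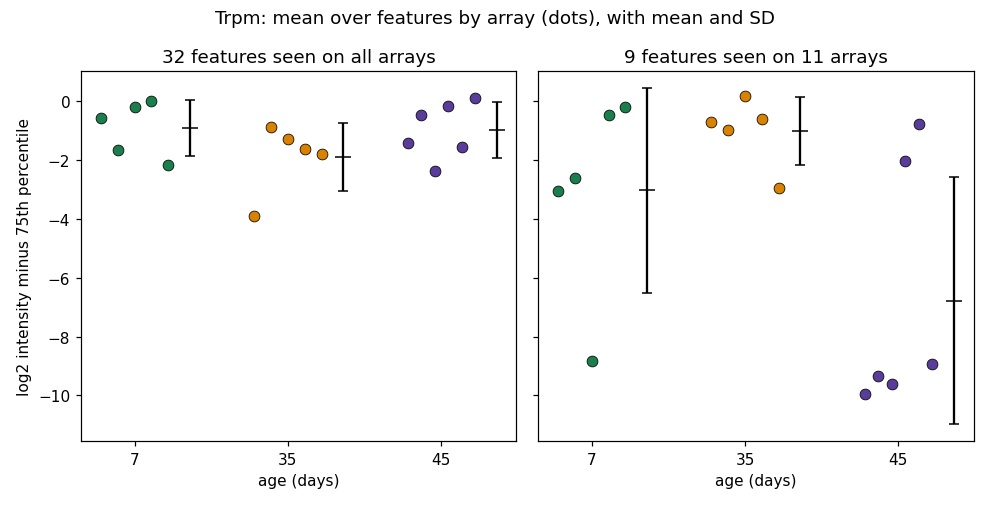
Mean over features of Trpm (vertical axis, log2 intensity minus the 75th percentile of the array) on each array (dots), by age in days (horizontal axis, ages as categories), with mean and SD beside the dots, for the 32 features seen on all arrays and the 9 features seen on 11 arrays. The 32 features stay between -3.90 and 0.11, whereas the 9 fall below -8 on 1 array at 7 days and 4 at 45 days.

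Trpm-RB differed from the other transcripts. None of its 13 features was seen on every array, 7 were seen on 3 arrays or fewer, and none was seen on the 35-day replicate 1. Its custom feature 5 was seen on 3 arrays. It lay 3.69 above the median on the 7-day replicate 4, and 5.47 and 6.60 above it on the 45-day replicates 2 and 3. Custom feature 6 lay 3.24, 4.98 and 6.45 above the median on the same 3 arrays.

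Detection by order was uneven for the family as a whole. Of the feature and array pairs of the first 4 orders 49.7% were well above background, against 32.5% for the last 6, where the shares were 75.8% and 69.6% over all custom features of the array with 10 features per transcript. Without Trpm the TRP shares were 35.0% and 14.1%. What the order stands for along the transcript is not given in the sources used here.

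Of the other members of the TRP superfamily 5 of 6 had features, 108 in all. The genes wtrw (water witch), brv2 and brv3 were seen on all arrays. None of the 108 features passed between any pair of ages, and 1 feature, of brv1, passed the F test across the ages, where 0.582% of all features did. Of 11 further genes for sensing force, heat or pain, Piezo, subdued and Tmem63 were seen on all arrays, and none of their 222 features passed between any pair. The median changes of these lists at 35 days relative to 7 days were -0.47 and -0.82.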

How the data were processed

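The authors deposited 1 scanner file per array from Agilent Feature Extraction 11.5.1.1, with background-adjusted spot intensity not normalized between arrays, and 1 table of log2 values, which is scaled on the 75th percentile of an array and centred per feature (median absolute difference 0.0011 to 0.0053 per array). From the scanner files, control spots (1319 of 62976) and outlier spots were left out, log2 was taken, each array's 75th percentile over features was subtracted, and spots of a feature were averaged. No filter on dim features was used. Features were named by accession (33175) or a gene table (1809). For each pair of ages a linear model with moderated variance was fitted to those arrays alone (limma 3.58.1, R 4.3.3), and a moderated F test to all arrays, with Benjamini-Hochberg adjustment over all features or genes. Single values were compared by exact permutation with scipy 1.17.1. The model fits were tested on simulated data. The files lacked mean signals, so the normexp alternative used median signals.

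All 10 TRP genes were named, and features singly where they passed the threshold. The members, lists and tests were chosen with earlier results of these data known. Alternatives were normalization, background, dim-feature filters, blocks, slides, models and leaving out each array. Same-numbered arrays of different ages had r = -0.091 to 0.20 (15 pairs, 4 over 0.1). Their median r was 0.078, against 0.00066 for pairs with other numbers. The main fits used no pairing, and the replicate number as a block was an alternative. The files use genome build dm3, for which no genome was used here, so no positions or sequences are given.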

Additional observations from a re-analysis of the deposited data

Results flagged for a closer look

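In 42 groups of arrays of one age, 3 values lay farther from the rest than a range test at the 95% level allows, and chance alone gives about 1 such value in 20 groups. The trp gene value on the 45-day replicate 1 was -4.45, where the other 5 arrays of that age had -10.16 to -8.91. The Trpm gene value on the 35-day replicate 1 was -7.25 (-7.245), where the other 4 had -3.32 to -2.61. The nan feature CUST_6681 on the 45-day replicate 2 was -6.38, where the other 5 had -10.44 to -9.49.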

How the results depend on the processing

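The counts of TRP genes past the threshold between 45 and 7 days and between 45 and 35 days were 0 under all 32 alternatives each. The count of TRP features between 35 and 7 days was 1, and 0 under quantile normalization, normexp background, only features seen on all 16 arrays, the replicate block or slide 2 alone. It was 2 on slide 1 alone and 29 by the methods' t-test without adjustment (5097 of all 45366 features). It was 33 with a floor on dim signals (3003 of all features) and 1 to 43 leaving out 1 array each. The genes of that comparison numbered 2 with the floor (585 of all 12977 genes) and 2 by the unadjusted t-test. They numbered 1 (nan) among features seen on every array of one age, and 0 to 1 leaving out 1 array. Between 45 and 7 days TRP features numbered 1 among features seen on every array of one age and 1 with all 3 ages in one model. They numbered 5 on slide 1 alone (all of Trpm), 3 by the unadjusted t-test (2014 of all features) and 0 to 1 leaving out 1 array. Between 45 and 35 days they numbered 9 on slide 1 alone and 13 by the unadjusted t-test (1430 of all features). The features called on slide 1 alone in the comparisons with 45 days are Trpm features chosen after their values were seen. All 3 45-day arrays of that slide lacked them, so these counts add no support. Those called on slide 1 alone between 35 and 7 days were 1 of pyx and 1 of nan. Across the 3 ages the F test called 0 TRP features under normexp, only features seen on all arrays, the replicate block or slide row as a term, and 1 to 32 leaving out 1 array, and 1 gene (nan) among features seen on every array of one age. TRP genes seen on all arrays numbered 7 by the weaker flag for a positive and significant signal, and 0 when most of the features of a gene had to be seen.

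The change of nan feature CUST_6681 between 35 and 7 days was -3.83 under quantile normalization (limma, adjusted p = 0.0526), -1.36 under normexp (0.315), -4.99 with the replicate block (0.0988) and -4.72 on slide 2 alone (0.367), and did not pass in these. It was -5.21 to -4.57 leaving out 1 array and passed each time. Between 45 and 35 days its change was -0.056 under normexp. The nan gene value passed between 35 and 7 days with the floor (-1.14, adjusted p = 0.0475) and among features seen on every array of one age (-4.99, adjusted p = 0.00145). Between 45 and 7 days it was 0.039 under quantile normalization, 0.035 with slide row as a term, 0.035 in slide row 2 alone and 0.039 on slide 1 alone, and between 45 and 35 days -0.14 under normexp. The filter on features seen on every array of one age admitted 1 nan feature, CUST_6681, through the 7-day arrays on which it was bright, so each nan call under this filter repeats that feature and adds no support. Otherwise the cause was not tested. Slides 1 and 2 alone were chosen after seeing the data. No TRP gene passed with the replicate block. None had passed in the main fits either, so there was no gene call for the block to remove.

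Since 265 of 363 TRP features were seen on some arrays only and 64 on none, their changes mix measured values with values at the unseen level, and 5 or 6 arrays per age limit the precision.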
